A study of Mus musculus with 4 samples.

Results

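The genes described here are 10 genes of bone morphogenetic protein (BMP) signalling: the Id factors Id1, Id2, Id3 and Id4, the inhibitory Smads Smad6 and Smad7, the ligand Bmp4, the protease Bmp1, and the antagonists Grem1 and Bambi. They were taken by gene symbol from 19938 genes read by a probe set with a single symbol, and all 10 were found, each with 1 probe set. The cells were mouse embryonic fibroblasts (MEFs), connective tissue cells cultured from embryos. The groups were wild-type cells in isotonic medium, wild-type cells in hypertonic medium, cells labelled NFAT5/TonEBP knockout in isotonic medium, and cells with that label in hypertonic medium. All were unsynchronised and spent 20 hours in their medium, and NaCl brought the hypertonic medium to 450 mosmol/kg. NFAT5, also called TonEBP, is the transcription factor of the tonicity response. Each group was 1 Affymetrix Mouse Gene 1.0 ST array of a pool of 4 samples. There was therefore no spread between replicates, no test was made, and "higher" and "lower" describe 4 pools. The sources used here do not say which part of Nfat5 was deleted, how many embryos stood behind each genotype, or how osmolal the isotonic medium was.

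BMPs are secreted ligands that bring type I and type II receptor kinases together, and the type I receptor then phosphorylates Smad1, Smad5 and Smad9, which enter the nucleus with Smad4. Genes switched on directly by this route include the Id genes and the feedback inhibitors Smad6 and Smad7. Id proteins have a helix-loop-helix domain but no DNA-binding region, so they pair with E proteins and keep these from acting on differentiation genes. In connective tissue, BMP signalling is known for its part in the choice of bone, cartilage and other mesenchymal fates.

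The arrays correlated with each other at 0.979 to 0.989 across 35557 probe sets. A signal was called dim when it lay below the median of the single-symbol probe sets of its array, 5.38 to 5.44 on the log2 scale. Genes counted as measured in a comparison were those above that limit on at least 1 of its arrays, and of these the ones that differed at least 2-fold, 1 on the log2 scale, were counted. Nfat5 read 7.74 and 8.19 in wild-type isotonic and hypertonic cells and 8.03 and 8.24 in the knockout-labelled cells. It was not lower in the latter, so their label is used here as a label only. Of 11 fibroblast markers, 8 read above the dim limit on the wild-type arrays, and Fap, Dcn and Lum were dim on all 4 arrays. Of 7 endothelial markers, 1 was above the limit on any array, Erg at 7.02 in knockout-labelled isotonic cells, where Pecam1 read 3.74 and Cdh5 3.33. No array had more than 1 of 6 macrophage, 2 of 6 epithelial, 1 of 4 neural or 1 of 5 muscle markers above the limit. Between probe sets of the same gene, array differences varied with an SD of 0.15 to 0.21 per probe set, which is the only error that the arrays themselves give.

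Among the 10 genes, Id3, Id2 and Id1 had the largest differences between media in wild-type cells. Id1, Id2 and Id3 were each lowest in wild-type isotonic cells. For Id2 and Id3 the other 3 arrays lay closer to each other than to that pool, and for Id1 they did not. In wild-type cells all 4 Id genes read higher in hypertonic medium, and Id2 and Id3 passed 2-fold. In knockout-labelled cells Id1, Id2 and Id3 read lower in hypertonic medium, by less than 2-fold, and Id4 read higher.

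**Figure D1:**
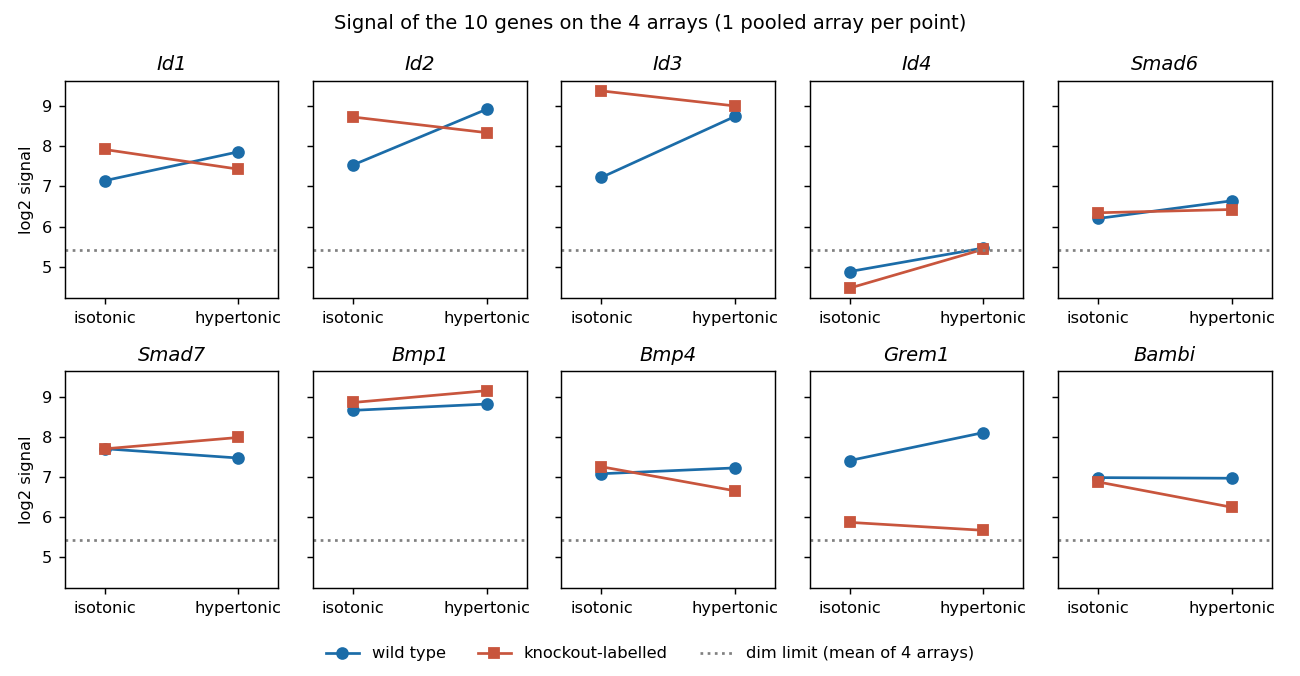
Each panel plots 1 gene, with log2 signal against medium, 1 point for each pooled array, and lines that join the media of a genotype (blue circles, wild type; red squares, knockout-labelled). The dotted line is the mean dim limit of the arrays. Id1, Id2, Smad6 and Bmp4 have crossing lines, as does Smad7, whose isotonic points nearly coincide. Id3 starts at 7.22 in wild-type isotonic cells against 8.74 to 9.38 elsewhere. Grem1 has the knockout-labelled points at 5.86 and 5.67 below the wild-type points at 7.41 and 8.10.

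Promoter windows from RefSeq (GRCm38.p6), which run from 250 bases before a gene's start to 50 bases after it, were searched for 6 of the genes: Id2, Id3, Id4, Smad6, Bmp4 and Grem1. The windows of 4 of them are shown. Id2 and Id3 had the largest wild-type differences between media, Smad6 is a feedback target of the pathway, and Grem1 had the largest difference between genotypes in hypertonic medium. Capitals mark the motifs searched on both strands: GGCGCC, the core of the GC-rich BMP response element, and GTCT (AGAC on the other strand), the minimal Smad box. The windows lie at chr12:25096043-25096342 on the minus strand (Id2), chr4:136143572-136143871 on the plus strand (Id3), chr9:64022010-64022309 on the minus strand (Smad6) and chr2:113758599-113758898 on the minus strand (Grem1). Each is written 5′ to 3′ along its gene.
Id2: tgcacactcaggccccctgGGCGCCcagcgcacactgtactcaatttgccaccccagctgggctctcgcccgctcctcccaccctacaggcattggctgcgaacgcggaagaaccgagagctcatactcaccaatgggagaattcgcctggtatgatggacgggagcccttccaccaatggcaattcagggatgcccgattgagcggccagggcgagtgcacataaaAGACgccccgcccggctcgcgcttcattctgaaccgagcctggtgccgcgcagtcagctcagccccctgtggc
Id3: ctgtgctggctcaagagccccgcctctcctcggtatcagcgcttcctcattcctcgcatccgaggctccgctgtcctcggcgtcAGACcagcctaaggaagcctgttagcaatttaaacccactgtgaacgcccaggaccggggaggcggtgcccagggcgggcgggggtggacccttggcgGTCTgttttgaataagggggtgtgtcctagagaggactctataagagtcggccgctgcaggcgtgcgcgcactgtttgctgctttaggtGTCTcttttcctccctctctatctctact
Smad6: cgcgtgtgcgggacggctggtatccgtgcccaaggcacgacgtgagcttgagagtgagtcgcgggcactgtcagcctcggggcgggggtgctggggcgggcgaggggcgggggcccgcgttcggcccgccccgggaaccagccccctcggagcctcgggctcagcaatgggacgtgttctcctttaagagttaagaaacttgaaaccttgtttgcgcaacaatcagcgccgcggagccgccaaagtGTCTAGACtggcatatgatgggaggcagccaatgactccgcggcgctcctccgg
Grem1: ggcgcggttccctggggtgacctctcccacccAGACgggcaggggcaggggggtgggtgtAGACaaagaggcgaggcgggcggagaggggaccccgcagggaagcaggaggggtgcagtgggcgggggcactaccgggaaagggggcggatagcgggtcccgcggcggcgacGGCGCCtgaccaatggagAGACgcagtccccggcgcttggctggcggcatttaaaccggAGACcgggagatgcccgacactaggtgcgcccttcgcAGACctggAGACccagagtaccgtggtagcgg

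GGCGCC was found once in the windows of Id2, Id4 and Grem1 and not in those of Id3, Smad6 and Bmp4. Of all 32851 promoter windows in the table, 11.9% hold it. Counted from the first transcribed base, it begins at position -231 in Id2, -148 in Id4 and -78 in Grem1. GTCT was counted 6 times in Grem1, a number that 3.52% of all windows reach, and 3 times in Id3, which 39.6% reach. Smad6 and Bmp4 have 2 each, Id2 has 1 and Id4 none, against a median of 2. In Smad6 the pair joins into the palindrome GTCTAGAC across the start used for this window. That longer word was noticed after the windows were seen, and 0.213% of all windows contain it. The NFAT5 (TonE) consensus, present in 4.96% of all windows, matched none of the 6. These windows are GC-rich, with 60.0% to 73.3% G or C against a median of 52.7%. A match is a string of letters and was not measured as a bound site in these cells.

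Id1, a partner of E proteins, read 7.14 (isotonic) and 7.86 (hypertonic) in wild-type cells and 7.92 and 7.43 in knockout-labelled cells. The wild-type isotonic pool was lowest, 0.29 below the knockout-labelled hypertonic pool, which itself lay 0.43 below the top pair. That pair differed by 0.06, less than the SD between probe sets. The difference between media was 0.72 in wild-type cells, a 1.65-fold higher signal, and -0.49 in knockout-labelled cells. In isotonic medium the knockout-labelled cells stood 0.78 above wild type, and in hypertonic medium their difference was -0.43.

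Id2, which has the same kind of domain, read 7.54 (isotonic) and 8.92 (hypertonic) in wild-type cells and 8.73 and 8.34 in knockout-labelled cells. Again 1 pool was low, wild-type isotonic, and it lay 0.81 below its nearest neighbour while the other 3 spanned 0.58. The wild-type difference of 1.39 was a 2.62-fold higher signal in hypertonic medium, and the knockout-labelled difference was -0.39. Between genotypes Id2 differed by 1.19 in isotonic medium, 2.29-fold higher in the knockout-labelled cells, and by -0.58 in hypertonic medium.

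Id3 read 7.22 (isotonic) and 8.74 (hypertonic) in wild-type cells and 9.38 and 9.01 in knockout-labelled cells. Both knockout-labelled pools were above both wild-type pools, and wild-type isotonic lay 1.52 below the next, with the other 3 within 0.64. That gap is the wild-type difference between media, a 2.87-fold higher signal in hypertonic medium. In knockout-labelled cells the difference was -0.38. In isotonic medium the knockout-labelled cells were 2.16 above wild type, 4.46-fold, and in hypertonic medium 0.26 above.

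Id4 was the dim member of the family, at 4.88 (isotonic) and 5.46 (hypertonic) in wild-type cells and 4.47 and 5.43 in knockout-labelled cells. The hypertonic signals lay just above the dim limit in both genotypes, and the isotonic signals lay below it. The differences between media were 0.59 and 0.97, and their sizes are poorly determined because the lower signal was dim. In isotonic medium Id4 was dim in both genotypes and is not counted there; in hypertonic medium the genotypes differed by -0.03, which turned to 0.004 under quantile normalization.

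Set against all genes, the wild-type differences of Id3 and Id2 were matched or exceeded by 35 and 52 of 10134 measured genes, themselves included, and that of Id1 by 262. In isotonic medium 18 of 10191 genes had a genotype difference at least as high as that of Id3, 110 as high as that of Id2 and 270 as high as that of Id1. The wild-type isotonic array enters both comparisons, so these are different readings of the same low value and not separate evidence. The endothelial marker Erg was, like Id1 and Id3, highest in knockout-labelled isotonic cells, at 7.02 against 4.78 to 5.30 elsewhere, while the other 6 endothelial markers were dim on all arrays. Its part in the Id values was not tested.

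Smad6, which blocks BMP-activated Smads, read 6.20 (isotonic) and 6.64 (hypertonic) in wild-type cells and 6.34 and 6.42 in knockout-labelled cells. All signals were above the dim limit and within 0.44 of each other. Its difference between media was 0.44 in wild-type cells and 0.08 in knockout-labelled cells, the latter within the SD between probe sets. Smad7, an inhibitor of both the BMP and the TGF-beta branch, read 7.70, 7.47, 7.70 and 7.98 in the same order. The isotonic signals of the genotypes differed by less than 0.01 and changed sign with the scaling. The Smad7 difference between media was -0.23 in wild-type cells and 0.28 in knockout-labelled cells, which put the hypertonic knockout-labelled pool 0.51 above the wild-type one. Neither inhibitory Smad passed 2-fold in any comparison.

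Bmp4, the ligand among these genes, read 7.08 (isotonic) and 7.22 (hypertonic) in wild-type cells and 7.25 and 6.65 in knockout-labelled cells. The other pools lay together and the knockout-labelled hypertonic pool was low, 0.43 below the next. Its difference between media was 0.14 in wild-type cells and -0.60 in knockout-labelled cells. Bmp1 bears the name of the family but encodes a metalloprotease that trims procollagens and cleaves the BMP antagonist chordin. It read 8.66, 8.81, 8.85 and 9.15 in the same order, so that all pools lay within 0.49, and it was 0.16 and 0.29 higher in hypertonic medium. Of its 4 listed relatives and cofactors, Tll1, Tll2, Pcolce and Pcolce2, 3 were measured. The protease gene Tll1 read 5.64 to 6.23 over the arrays and the enhancer gene Pcolce 11.21 to 11.61. Pcolce2, an enhancer of procollagen processing, read 7.24 and 8.45 on the knockout-labelled arrays, a difference of 1.21.

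Grem1, encoding gremlin, which binds BMP ligands outside the cell, read 7.41 (isotonic) and 8.10 (hypertonic) in wild-type cells and 5.86 and 5.67 in knockout-labelled cells. Both knockout-labelled pools lay 1.54 or more below both wild-type pools, close above the dim limit. Grem1 was 2.91-fold lower in knockout-labelled cells in isotonic medium, a log2 difference of -1.54, and 5.41-fold lower in hypertonic medium, a difference of -2.44. Of all measured genes, 43 of 10191 were at least as low in the first and 57 of 10374 in the second comparison. Between media it differed by 0.70 in wild-type and by -0.20 in knockout-labelled cells. The neural marker Tubb3 was also lower in knockout-labelled cells, at 5.42 and 5.86 against 7.51 and 6.93, with Sox10, S100b and Gfap dim on all arrays, and its part was not tested.

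Bambi, a membrane protein that resembles a type I receptor without its kinase and dampens signalling, read 6.98 (isotonic) and 6.96 (hypertonic) in wild-type cells and 6.87 and 6.24 in knockout-labelled cells. As with Bmp4, 1 pool was low, the knockout-labelled hypertonic one, 0.63 below the next. The wild-type difference of -0.02 changed sign with the scaling, and the knockout-labelled difference was -0.63. The genotypes differed by -0.72 in hypertonic medium.

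Fibroblast markers were also lower in the knockout-labelled hypertonic cells. Of 8 measured there, 6 were at least 2-fold below wild type (Col1a1, Col1a2, Col3a1, Pdgfra, Pdgfrb and Postn), beside 6.43% of all measured genes. The median difference of the 8 was -1.56 against -0.01 for all measured genes. The summed linear signal of the 11 markers was 17030 and 18442 in wild-type isotonic and hypertonic cells and 14819 and 10045 in the knockout-labelled cells. In isotonic medium the measured markers had a median genotype difference of -0.35, while those of Id1, Id2 and Id3 were above 0. Thy1 alone passed 2-fold there, lower in knockout-labelled cells, beside 1.28% of all genes. Between media most of the same markers had the sign of Id1, Id2 and Id3, while Id4 read higher in hypertonic medium in both genotypes. In wild-type cells 7 of 8 were above 0 (median 0.42 beside -0.02 for all genes), and in knockout-labelled cells 7 of 8 were below 0 (median -0.47 beside -0.09). Their difference of responses had a median of -1.11 beside -0.06, and 4 of 8 were at least 2-fold negative, beside 5.53% of all genes. Whether the fibroblast markers have a part in the values of Id1, Id2, Id3, Grem1, Bmp4 and Bambi was not tested. In pooled cultures, fewer cells of a type and less RNA per cell cannot be told apart.

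In wild-type cells 2 of the 10 genes, Id2 and Id3, were at least 2-fold higher in hypertonic medium, where 1.01% of all measured genes were, and none was 2-fold lower, against 0.414%. Of the 10 differences 8 were above 0. Their median was 0.51, beside -0.02 for all measured genes. In knockout-labelled cells none of the 10 passed 2-fold in either direction, against 0.379% of all genes higher and 3.08% lower. The split of all genes moved with scaling: 11.0% of those past 2-fold were higher as deposited and 22.7% after quantile normalization. There 4 members were above 0 and 6 below, with a median of -0.29 beside -0.09 for all genes. Id4, at 0.97, came closest to 2-fold, and 45 of 10277 genes were as high.

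**Figure D2:**
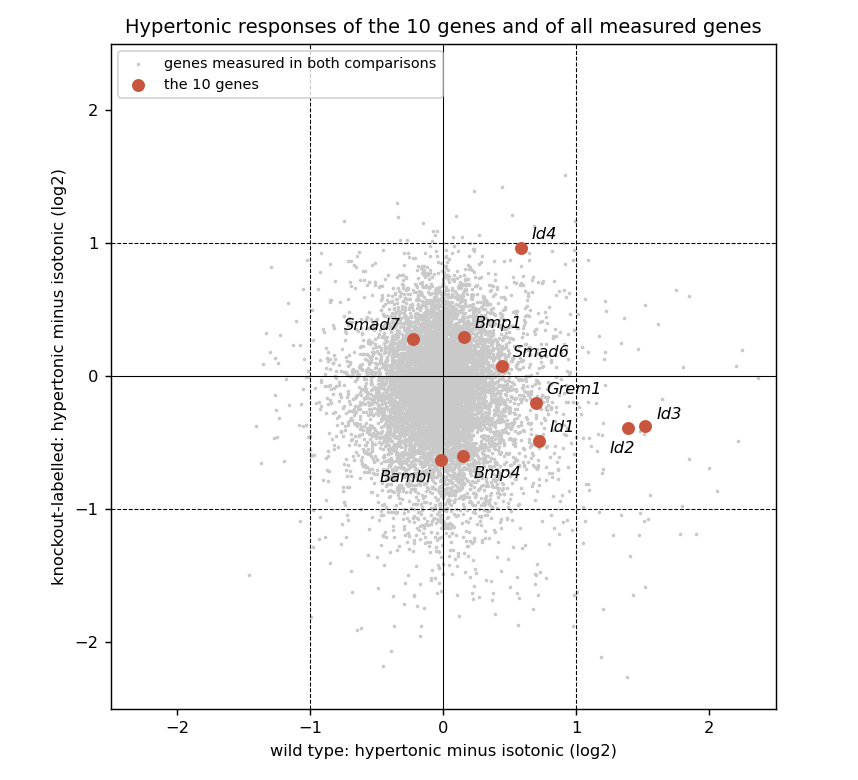
The difference between hypertonic and isotonic medium in knockout-labelled cells (vertical axis, log2) is plotted against that in wild-type cells (horizontal axis, log2), with 9869 genes measured in both in grey, 3 of them outside the axes, and the 10 genes in red. Dashed lines mark 2-fold; Id2 and Id3 lie right of the 2-fold line at 1.39 and 1.52 and below 0 on the vertical axis, and Id4 lies at 0.59 and 0.97.

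The direction of the knockout-labelled differences between media rests on the labels of those arrays alone, and each would have the opposite sign with the arrays in the other order. The knockout-labelled difference minus the wild-type difference was at least 2-fold negative for Id1 (-1.21), Id2 (-1.78) and Id3 (-1.89). That is 3 of 10 members, where 5.53% of all 10542 measured genes were negative by as much, and none was 2-fold positive, against 1.41%. Genes at least as negative numbered 79 for Id3, 101 for Id2 and 355 for Id1. These calls depend on which knockout-labelled array is isotonic. With the labels of that pair swapped, Id1 (-0.23) and Id2 (-0.998) no longer pass 2-fold, Id3 (-1.14) does, and Id4 (-1.55) joins it, with 1.94% of all genes 2-fold negative. As labelled, Grem1 (-0.89), Bmp4 (-0.75) and Bambi (-0.61) were negative by less, and Smad7 (0.51) and Id4 (0.38) were positive. No test of these differences could be made.

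Between genotypes in isotonic medium, 2 of 9 measured members, Id2 and Id3, were at least 2-fold higher in knockout-labelled cells, where 1.59% of all genes were. With the other knockout-labelled array in place, Id3 (1.78) stays past 2-fold and Id2 (0.81) does not. Grem1 was the member at least 2-fold lower, where 1.28% of all genes were. The median of the 9 was 0.17, beside 0.03 for all genes. In hypertonic medium no member was 2-fold higher, against 2.57% of all genes, and Grem1 was again 2-fold lower, where 6.43% were. Of the 10, 7 were below 0 there and the median was -0.32, beside -0.01.

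**Figure D3:**
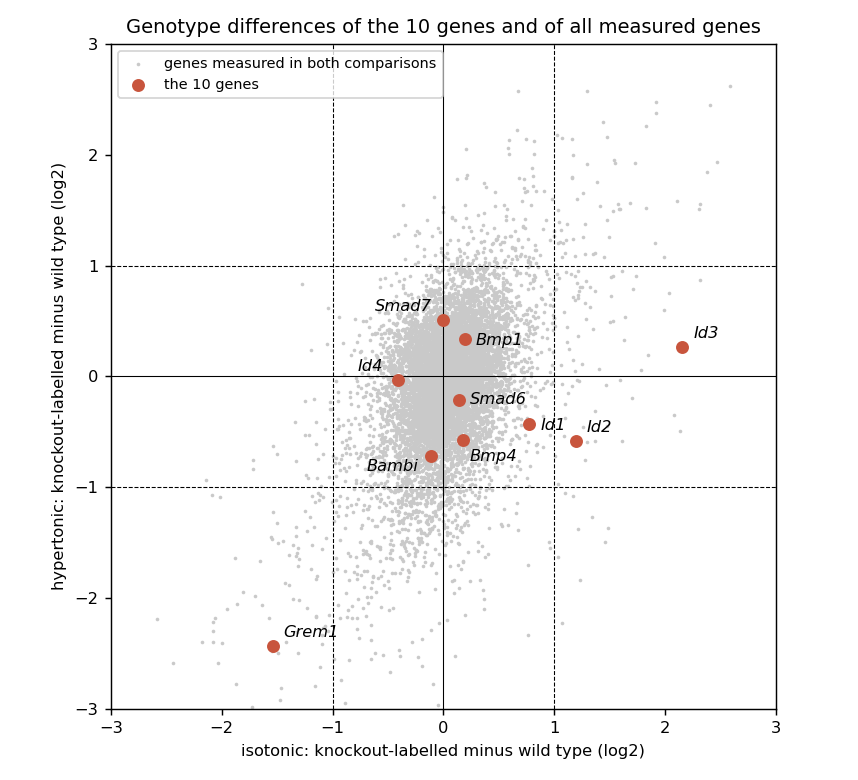
The knockout-labelled minus wild-type difference in hypertonic medium (vertical axis, log2) is plotted against that in isotonic medium (horizontal axis, log2), with 10023 genes measured in both in grey, 32 of them outside the axes, and the 10 genes in red. Dashed lines mark 2-fold; Id3 lies far right at 2.16 and near 0 vertically, Id2 right and below 0, Grem1 at the lower left at -1.54 and -2.44, and Id4 was dim on both isotonic arrays.

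The other genes of the pathway were read from a list of 59, of which 57 were on the array under a single symbol. Of the 27 measured in wild-type cells, 1 was at least 2-fold higher in hypertonic medium and none was lower, beside 1.01% and 0.414% of all genes, with a median of 0.06 beside -0.02. In knockout-labelled cells none of 29 passed 2-fold, beside 0.379% higher and 3.08% lower, with a median of 0.11 beside -0.09. In isotonic medium 4 of 29 were higher and 2 lower in knockout-labelled cells, beside 1.59% and 1.28%, and both medians were 0.03. In hypertonic medium 3 of 28 were higher and 2 lower, beside 2.57% and 6.43%, with a median of -0.11 beside -0.01. Among those higher, Bmp2 (isotonic) and Bmp8b and Hey1 (hypertonic) were above the dim limit in knockout-labelled cells only. They were measured only through the group where they are high, and the sizes of their differences are poorly determined. In the difference of responses 2 of 31, Msx1 (-1.10) and Atoh8 (-1.63), were at least 2-fold negative, beside 5.53%, and none was positive, beside 1.41%. With the same swap 0 were 2-fold negative.

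**Figure D4:**
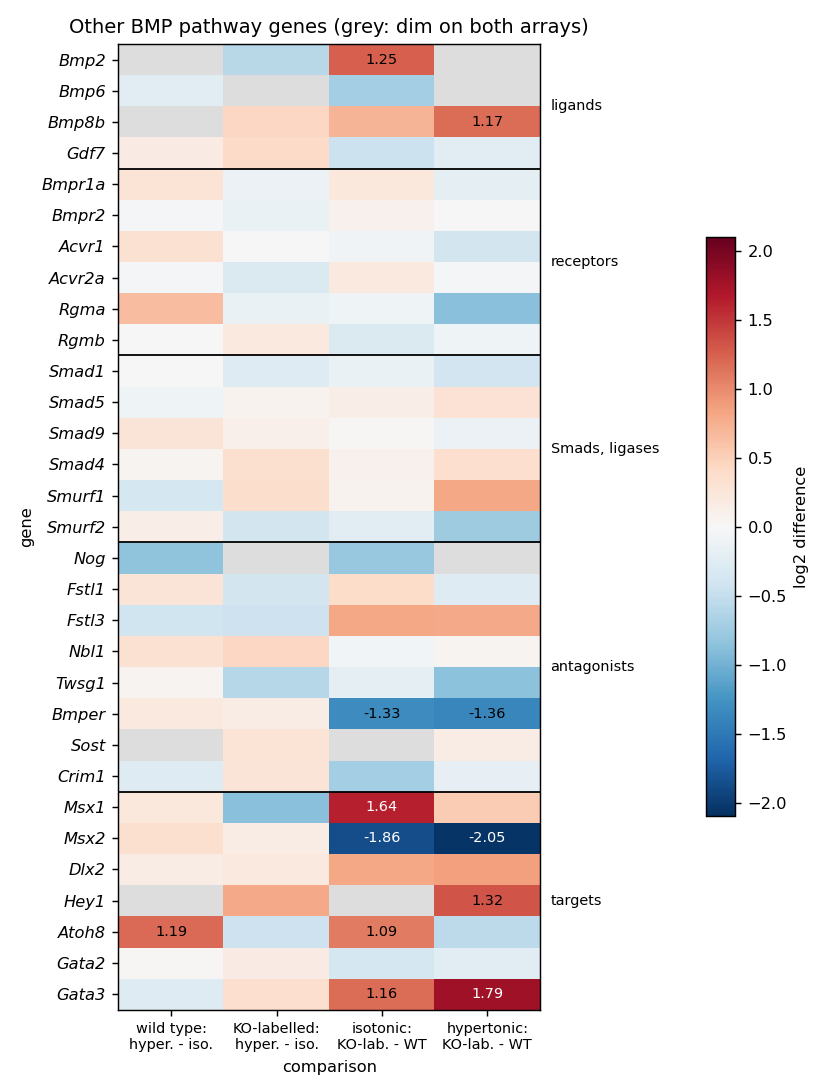
Rows are the 31 listed pathway genes measured in at least 1 comparison, grouped by role, and columns are the 4 comparisons between arrays. Colour gives the log2 difference (red higher, blue lower, grey where dim on both arrays), and values are printed for those past 2-fold, among them Atoh8 at 1.19 in the wild-type response and Msx2 at -1.86 and -2.05 between genotypes.

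Most other ligand genes were dim. Bmp2, a close relative of Bmp4, read 4.60 and 5.01 in wild-type and 5.86 and 5.28 in knockout-labelled isotonic and hypertonic cells. It was above the dim limit in knockout-labelled isotonic cells only, 1.25 above wild type. Bmp8b was above the limit on the knockout-labelled arrays only, at 5.40 and 5.84, and 1.17 above wild type in hypertonic medium. Bmp6 reached 5.62 in wild-type isotonic cells, and Gdf7 read 5.74 to 6.36 on the 4 arrays.

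None of the 6 measured receptor and co-receptor genes passed 2-fold in any comparison. Between arrays, 0.379% to 6.43% of all genes did so in either direction, so none of 6 is near those shares. The type I receptor gene Bmpr1a read 9.34 to 9.63 over the 4 arrays, the type II receptor gene Bmpr2 8.74 to 8.87, and the co-receptor gene Rgmb 6.70 to 7.01. Rgma, its relative, differed by 0.65 between media in wild-type cells, from 6.36 to 7.00. Nor did any of the 6 Smad and ubiquitin ligase genes pass 2-fold, which is again near those shares. Smad4, the shared partner, read 9.46 to 9.88 and the BMP effector genes Smad5 and Smad1 8.25 to 8.55 and 7.14 to 7.54. Smurf1, a ligase that marks BMP Smads for breakdown, stood 0.81 higher in knockout-labelled cells in hypertonic medium, and its relative Smurf2 differed by -0.74.

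In each comparison between arrays 7 antagonist genes were measured, with Nog in some comparisons and Sost in the others. Bmper alone passed 2-fold between genotypes, in both media, where 1.28% (isotonic) and 6.43% (hypertonic) of all genes were lower. None did so between media. Bmper encodes a secreted BMP-binding protein and read 7.68 and 7.88 in wild-type and 6.36 and 6.52 in knockout-labelled cells. The differences between genotypes were -1.33 in isotonic and -1.36 in hypertonic medium, in the same direction as Grem1. Nog, encoding noggin, was above the dim limit in wild-type isotonic cells only, at 5.73, and differed there by -0.85 between media. The listed antagonist genes Fstl1, Crim1 and Twsg1 read 10.80 to 11.18, 9.02 to 9.73 and 8.45 to 9.31, none of them past 2-fold in any comparison.

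The listed target genes went different ways. Atoh8, a helix-loop-helix factor, read 5.67 (isotonic) and 6.86 (hypertonic) in wild-type cells and 6.76 and 6.32 in knockout-labelled cells. As for Id1 and Id2, wild-type isotonic was lowest, with differences between media of 1.19 and -0.44. The homeobox gene Msx1 read 5.60 and 5.82 in wild-type and 7.23 and 6.36 in knockout-labelled cells, 1.64 higher in the latter in isotonic medium. Its relative Msx2 went the other way, at 7.31 and 7.66 against 5.45 and 5.60, differences of -1.86 and -2.05. The transcription factor gene Gata3 was higher in knockout-labelled cells in both media, by 1.16 and 1.79. Hey1, a repressor, was above the dim limit in knockout-labelled hypertonic cells only, at 6.11 against 4.79 in wild type. The size of that difference, 1.32, is poorly determined because the lower signal was dim. Gata2 read 6.09 to 6.47 on the 4 arrays.

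The E protein genes Tcf3, Tcf4 and Tcf12, whose products Id proteins bind, read 8.76 to 8.87, 8.70 to 9.12 and 8.41 to 8.89. Of 14 listed E protein and other helix-loop-helix genes on the array, 7 or 8 were measured in each comparison and none passed 2-fold. Between arrays, 0.379% to 6.43% of all genes did so in either direction, so none among so few genes is near those shares. The median difference of the measured list genes between media was 0.07 in wild-type and -0.25 in knockout-labelled cells, beside -0.02 and -0.09 for all genes. The mesenchymal factors Twist1 and Twist2 read 9.77 to 10.01 and 8.56 to 8.98. Bhlhe40, a repressor of the clock system, differed most between media in wild-type cells, by -0.87, and spanned 1.25 over the 4 arrays.

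Likeness of profile was measured as the distance between the 4 signals of each gene after its own mean was taken off, among 9217 genes above the dim limit on all arrays. The signals were not scaled, so this distance depends on the size of the differences as well as on their pattern. Nearest to Id1 were Tor1aip1 (distance 0.10), Trim12c (0.12) and Tmem241 (0.13). Nearest to Id2 were Cd24a (0.08), Atoh8 (0.14) and Usp18 (0.23). Id3 had no neighbour as close, with the demethylase gene Kdm7a at 0.45, Hoxa13 at 0.58 and Foxc1 at 0.65. The Id genes were not each other's nearest: Id2 ranked 668 and Id3 8810 by distance from Id1, Id1 ranked 19 and Id3 724 from Id2, and Id2 ranked 22 and Id1 134 from Id3. The distance was 0.50 between Id1 and Id2, 0.91 between Id2 and Id3 and 1.18 between Id1 and Id3. Signals of Id1 spanned 0.78 over the arrays, those of Id2 1.39 and those of Id3 2.16. A low rank between these genes therefore does not mean that their patterns are unlike. A profile over 4 pooled arrays is a coarse description of a gene.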

How the data were processed

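RNA of 4 pooled samples per group was read on 1 array per group. The table the authors deposited gives a log2 signal for each probe set, a scale inferred from the range of the values, and MAS5 is named per the submitters' processing notes. How the arrays were normalized to each other is not stated. Values were used as deposited. Of 35557 probe sets, 21789 had 1 gene symbol in the platform annotation, and the brightest was kept per gene. Differences were counted at 2-fold where a signal passed the dim limit, the 50th percentile of single-symbol probe sets. With 1 array per group no p-value was computed, and the number of arrays limits the precision.

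The members and lists were chosen with earlier results of these data known. Named were all members, Nfat5, the list genes past 2-fold in any comparison or among the 3 highest mean signals of their list, and the 3 nearest profiles to Id1, Id2 and Id3; Rgma, Smad1, Smurf1, Nog, Tcf12, Twist2, Gata2 and Bhlhe40 were named after their values were seen, as were the marker genes outside fibroblasts. Counting was tried on simulated data with effects added only to genes above the dim limit on all arrays. That run cannot show how effects in dim genes are counted, and no result here rests on it. Alternatives were quantile and cyclic loess normalization, centring on the median, the mean of probe sets, no dim limit, a limit at the 75th percentile and a 1.5-fold limit; swapping the media of the knockout-labelled arrays was added after the data were seen. Promoter sequences are from RefSeq, GRCm38.p6. Python 3.11.15, pandas 2.3.3, numpy 2.4.6, matplotlib 3.10.9, R 4.3.3 and limma 3.58.1 were used.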

Additional observations from a re-analysis of the deposited data

Results flagged for a closer look

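In 6 of the 10 genes the single wild-type pair and the single knockout-labelled pair of arrays moved in opposite directions between media, and the difference was not tested. This rests on the media named for the knockout-labelled arrays: with those swapped, these 6 move the same way in both genotypes, and 4 others move in opposite directions. The share of all measured genes with opposite directions was not counted. The 6 of 10 therefore has no background beside it and is not read as a trait of these genes. The knockout-labelled minus the wild-type difference was -1.21 for Id1, -1.78 for Id2, -1.89 for Id3, -0.75 for Bmp4, -0.89 for Grem1 and 0.51 for Smad7. For Bmp4 the wild-type difference was 0.14, within the SD of 0.15 between probe sets of a gene, so its sign is weakly determined. The count also depends on Bambi, whose wild-type difference was -0.02 as deposited. It turned positive under quantile normalization, cyclic loess normalization and centring, while the knockout-labelled difference of -0.63 stayed negative. Under those scalings Bambi moved in opposite directions as well.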

How the results depend on the processing

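Under other scalings, all recomputed differences of single members moved by less than the SD between probe sets, and none past 2-fold changed sign. Averaging probe sets could not change these differences, because each of the 10 members has 1 probe set. Its values, equal to the deposited ones, are among the 200 recomputed and say nothing about robustness. Of 200 recomputed counts and medians, 27 moved by more than that SD or by over 1.5 times. With a 1.5-fold limit, members higher in wild-type hypertonic medium became 5, those in knockout-labelled cells 1 higher and 2 lower, those lower between genotypes in hypertonic medium 2, and those negative in the difference of responses 6. Pathway list counts then became 2 higher and 1 lower (wild type), 1 and 2 (knockout-labelled), 7 and 5 (isotonic), 6 and 5 (hypertonic) and 4 and 6 (difference of responses). At that limit, 418 of all 10134 measured genes were higher and 334 lower in wild type. In knockout-labelled cells the counts were 440 and 1237 of 10277. Between genotypes they were 501 and 394 of 10191 (isotonic) and 905 and 1562 of 10374 (hypertonic). In the difference of responses 818 of 10542 were positive and 1624 negative. With the dim limit at the 75th percentile, Grem1 was no longer measured in isotonic medium, which left 0 members lower. Member medians became 0.71 (wild type), 0.78 (isotonic), -0.084 (hypertonic) and -1.05 (difference of responses). The pathway list then gave 0 higher in wild type, 1 higher and 1 lower in isotonic and 1 higher in hypertonic medium, 0 negative differences of responses, and a knockout-labelled median of -0.12. Quantile normalization left 1 pathway gene negative in that difference. With the knockout-labelled arrays in reverse order, an alternative chosen after seeing the data, member medians became 0.29 (knockout-labelled) and -0.031 (hypertonic), 1 member was higher in isotonic medium, the pathway median was -0.11 (knockout-labelled) and 0 pathway genes had a 2-fold negative difference of responses. No paired analysis was possible because each group had 1 array. Background correction and detection calls were not used here. Values near the dim limit are therefore least certain, among them those of Id4, Bmp2, Bmp8b, Hey1, Nog, and Grem1 in knockout-labelled cells.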
